A study of Saccharomyces cerevisiae with 24 samples.

Results

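The 5.8S rRNA of budding yeast (Saccharomyces cerevisiae, strain BY4741) was described along its whole length in nanopore direct RNA sequencing libraries. All rows of the deposited tables whose reference is 5.8s were taken, which gave 158 of the 5475 positions of the rRNA reference, beside 3396 positions of 25S, 1800 of 18S and 121 of 5S. Its length equals that of RDN58-1 and RDN58-2 (YNCL0014C and YNCL0023C), the gene copies for 5.8S on chromosome XII in the RefSeq gene table. Positions are those of the deposited reference, numbered from 1 at its 5′ end, and no coordinates on the chromosome are given because the tables name no build.

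The series held 24 libraries in 12 groups of 2 replicates. The strain groups were WT and the deletion strains snR3KO, snR34KO and snR36KO, each made in BY4741 by exchanging 1 small nucleolar RNA (snoRNA) gene for a kanMX4 cassette, and all were total RNA of unstressed cells. Groups F1, F2, F3 and F4 were fractions 1 to 4 of a sucrose gradient of untreated wild-type cells. The peroxide experiment used wild-type cells left untreated or given 1 mM hydrogen peroxide for 30 min. Its RNA was unfractionated (input) or came from pooled gradient fractions 3 and 4 (F3-4). For input the labels give the RNA fraction as ribosomal RNA, against total RNA for the strains. Cells for gradients were given cycloheximide, an inhibitor of translation elongation, before harvest, and per the labels those cultures were biological duplicates. RNA of strains and input was purified with a commercial yeast kit, so RNA preparation differs between input and fractions. For the strains nothing says that replicates came from separate cultures, so a p-value there measures only the spread between these samples.

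5.8S rRNA is part of the large ribosomal subunit. It is cut, with 18S and 25S, from a common precursor, and in the ribosome it pairs with the 5′ region of 25S, whereas 5S is transcribed from its own gene by RNA polymerase III. Yeast 5.8S carries a pseudouridine (Ψ), an isomer of uridine that keeps its pairing with adenosine, at position 73. The known targets of the deleted snoRNAs, which guide Ψ formation, lie in 25S (snR3, snR34) and 18S (snR36), not in 5.8S. In direct RNA sequencing the RNA strand itself is drawn through a protein pore from its 3′ end, and a modified nucleotide disturbs the ionic current and the bases called from it.

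The reference sequence in the deposited tables is shown whole, with position 73 in capitals, so that each position named later can be found, and T stands for U. Its base composition is 41 A, 36 C, 37 G and 44 U. The window around position 73 runs from position 65 to 81, and the window of the highest deletion rates from 98 to 140, with the 5 positions of the highest rates in wild type (102, 111, 113, 120 and 136) in capitals.
5.8S rRNA: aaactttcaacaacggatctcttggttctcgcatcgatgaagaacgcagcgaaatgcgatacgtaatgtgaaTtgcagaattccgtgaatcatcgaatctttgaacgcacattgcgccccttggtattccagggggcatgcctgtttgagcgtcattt
Window of position 73: aatgtgaaTtgcagaat
Window of high deletion: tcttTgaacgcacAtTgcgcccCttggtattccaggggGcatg

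Tables of base-call errors existed for 20 libraries, which were replicate 1 of each strain and both replicates of the other 8 groups. Each gives per position the coverage, a count of reads, the share of reads with a mismatch, an insertion or a deletion, and the mean base quality, a score that is higher for a more certain call. Mean coverage of 5.8S ran from 19.5 reads in F1 replicate 2 to 3145 in snR3KO replicate 1, and between 152 and 158 positions were listed per library. At least 20 reads covered 132 to 157 positions, and the 3 shallowest libraries were both of F1 and replicate 1 of F4, with 22 to 36 reads at their best covered position. These tables hold no molecular identifiers, so all intervals cover counting error only.

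A single library stood apart from all others. In replicate 2 of peroxide-treated F3-4, mean coverage was 1745 reads on 5.8S, 485.4 on 25S, 498.7 on 18S and 16767 on 5S. Among the 20 libraries it was the only one in which mean 5.8S coverage exceeded mean 25S coverage. Against the last 158 positions of 25S alone, its log2 ratio was −0.54, so there 25S was deeper. Coverage differences between groups that include it are given with and without it, and without it the model called 0 positions of 5.8S in the peroxide experiment, as with it.

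In most libraries 5.8S was covered less deeply than 25S. Mean 5.8S coverage, with positions not listed counted as 0, was 21.9% of mean 25S coverage in snR3KO, 17.8% in snR34KO, 21.8% in snR36KO and 21.3% in WT, each in 1 library. In untreated input it was 22.2% and 22.4% in replicates 1 and 2, and in peroxide-treated input 24.3% and 25.7%. Strain and input libraries thus lay between 17.8% and 25.7%, and within the input groups replicates differed by less than 2 percentage points.

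Gradient fractions spread much more widely. Replicates 1 and 2 of F1 had ratios of 43.5% and 24.6%, those of F2 9.61% and 25.7%, those of F3 21.4% and 51.9%, and those of F4 33.0% and 3.97%. It was 13.5% and 22.8% in untreated F3-4, and 16.7% and 359% in peroxide-treated F3-4. Every fraction group spanned a wider range than either input group, and the ranges of F1 to F4 overlapped each other. The first point depended on the 25S positions used. Against the last 158 positions of 25S, log2 ratios were −3.94 and −3.34 in F2, and −2.79 and −3.44 in untreated input. There the F2 pair lay closer together than the input pair.

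On the log2 scale, with 0.5 reads added to each mean, F1 had a mean ratio of −1.59 ± 0.57, F2 of −2.67 ± 1.00, F3 of −1.58 ± 0.91 and F4 of −3.12 ± 2.17 (SD, n = 2). F3 and F1 were the highest and F4 the lowest, and the SD of F4 alone exceeded the range of the 4 means. An exact permutation test of the range of these means gave p = 0.724 (adjusted p = 0.889 over 3 tests, smallest possible p 0.0286). Without replicate 2 of F4 the range fell from 1.53 to 1.09, and without replicate 1 of F4 it was 3.07 (exact p = 0.152).

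The peroxide difference in the ratio did not pass its test. The log2 ratio was −2.16 ± 0.0053 in untreated and −1.9996 ± 0.054 in treated input, where both treated libraries exceeded both untreated ones (SD, n = 2). It was −2.51 ± 0.53 in untreated and −0.37 ± 3.13 in treated F3-4. The mean treated minus untreated difference over both kinds of RNA was 1.15 (exact permutation test, two-sided, p = 0.389, adjusted p = 0.889), and 0.05 without replicate 2 of treated F3-4 (exact p = 0.889). With its 36 arrangements, this exact permutation test cannot go below p = 0.0556, so it could not pass. The order of the input libraries depended on the 25S positions used. Against the last 158 of them, the log2 ratio was −2.79 and −3.44 in untreated input. In treated input it was −2.73 and −3.58, so there the groups overlapped.

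The difference between F3-4 and input also turned on replicate 2 of treated F3-4. It was 0.64 on the log2 scale with all libraries (exact permutation test, p = 0.889, adjusted p = 0.889) and −0.46 without it (exact p = 0.167). The peroxide difference in F3-4 differed from that in input by 1.97 (exact permutation p = 0.722), and by −0.24 without that library (exact permutation p = 0.722). None of the 3 tested differences in 5.8S coverage passed. The exact permutation tests of peroxide and of F3-4 against input cannot go below p = 0.0556. This keeps every adjusted p of the 3 above 0.05, whatever the values.

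**Figure D1:**
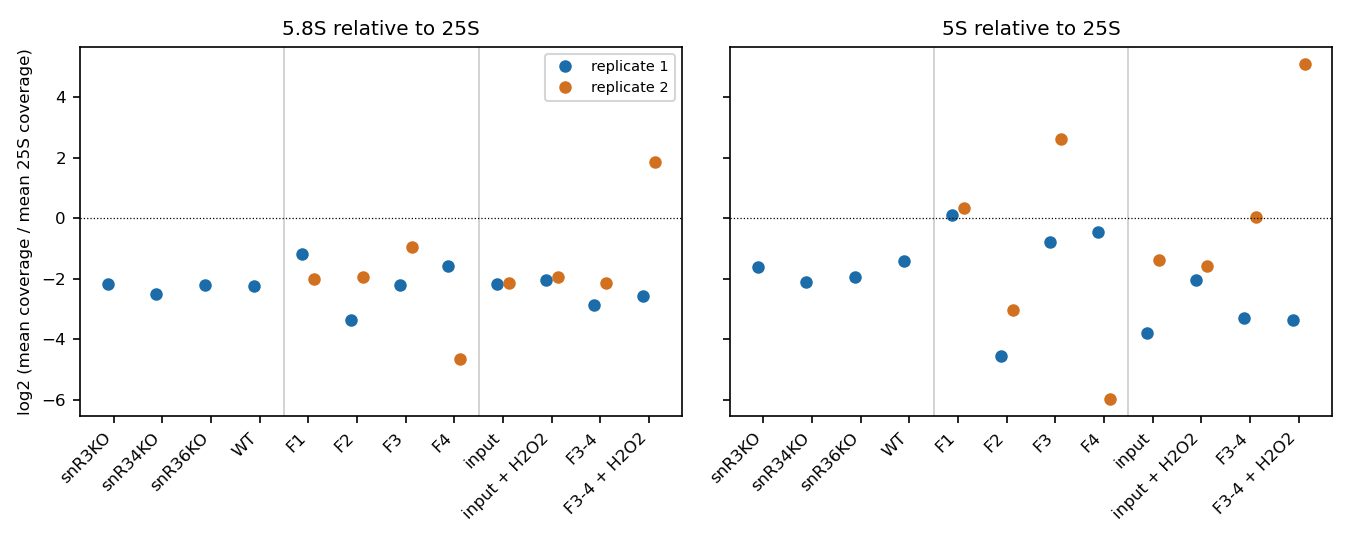
Mean coverage of 5.8S (left) and 5S (right) over mean coverage of 25S, on a log2 scale, for each of 20 libraries, with replicate 1 in blue and replicate 2 in orange. Strains and input lie close together in the left panel, between −2.49 and −1.96, while fraction libraries run from −4.65 in F4 replicate 2 to 1.84 in replicate 2 of peroxide-treated F3-4.

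Of the other rRNAs, 5S followed 5.8S most closely. Over the 20 libraries the log2 ratios of 5.8S and of 5S to 25S had Pearson r = 0.905 and Spearman rho = 0.755 (permutation p = 1e-05, the smallest that 100000 permutations can give, adjusted 2e-05, and 0.00018, adjusted 0.00036). For 18S to 25S the values were r = −0.13 and rho = −0.14 (permutation p = 0.574 and 0.550). These permutations move values freely over all 20 libraries. They thus treat libraries of different experiments and replicate pairs as exchangeable. Without the 2 libraries farthest from the median, r for 5S was 0.809. Both ratios share the 25S denominator, and with 5.8S taken over 18S instead r was 0.881. However, log2 18S to 25S coverage ran only from −0.35 to 0.83 over the libraries. Both denominators were thus much alike, and this exchange cannot set the shared part aside.

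The relation to 5S was not equally clear in each experiment. Within the 8 libraries of F1 to F4, r was 0.907 and rho 0.810 (exact permutation p = 0.00112 and 0.0218, adjusted over 9 relations 0.00502 and 0.098). Within the 8 libraries of the peroxide experiment, r was 0.929 and rho 0.714 (exact permutation p = 0.0127 and 0.0576, adjusted 0.0381 and 0.173). Without replicate 2 of treated F3-4 the latter r was 0.552 (exact permutation p = 0.215, n = 7), so in that experiment it rested on 1 library. With 5.8S taken over 18S, r was 0.946 and rho 0.929 within F1 to F4. In the peroxide experiment they were 0.881 and 0.405, and r was 0.217 without that library. Mean 5S coverage itself ranged from 0.323 times that of 5.8S in untreated input replicate 1 to 11.9 times in F3 replicate 2.

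Coverage had a similar shape along 5.8S in the 20 libraries. At position 7 it was 1.05% to 8.33% of the highest value in the library, and at position 12 it was 4.55% to 19.4%. At position 13 it stood at 50.8% to 77.3%, which made 13 the first position at or above 50% of the maximum in 20 of 20 libraries. The step from position 12 to 13 was 2.86-fold to 17.0-fold with a median of 4.10-fold, and the highest value came from F1 replicate 2, which has 22 reads at most.

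Coverage then rose to 90.9% or more by position 25 and stayed near its maximum at position 73, with 99.0% to 100% there. Towards the 3′ end it was 75.0% to 95.8% at position 156, 58.3% to 77.5% at position 157 and 41.7% to 59.4% at position 158. The loss at both ends was shared by strains, fractions and peroxide groups. For 25S and 18S, the maximum was taken over their first 158 positions only, and for 5S over the whole molecule. The first position at or above 50% of that maximum was 15 or 16 in 25S, and 13 or 14 in 18S and in 5S. By this local measure, a low-coverage stretch of similar length opened each rRNA.

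**Figure D2:**
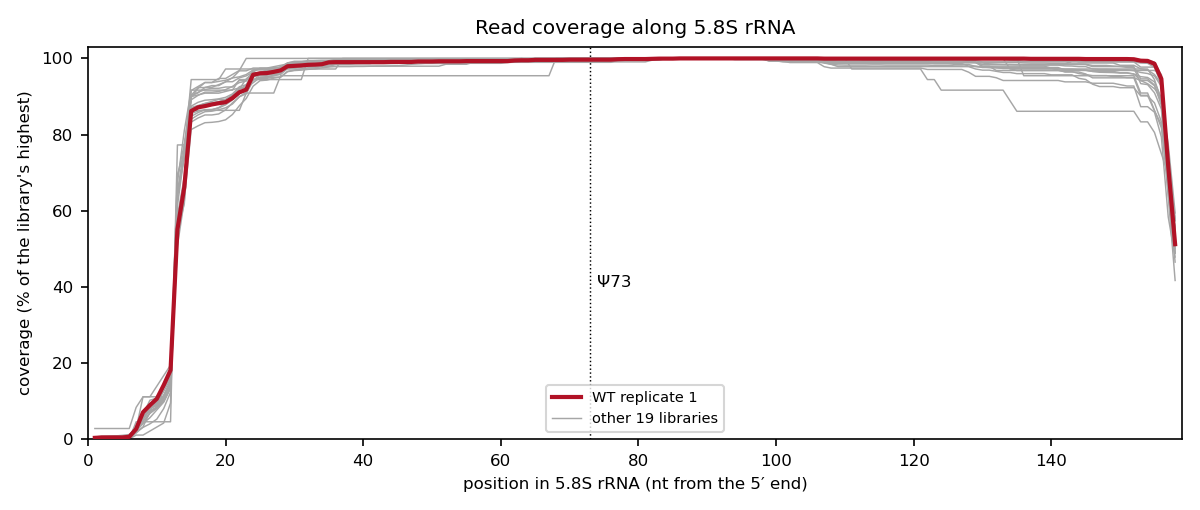
Read coverage at each of the 158 positions of 5.8S as a percentage of the highest coverage in the same library, with WT replicate 1 in red and the other 19 libraries in grey. All curves climb between positions 12 and 15 and fall over the last 3 positions, and position 73 lies on the plateau.

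Errors were unevenly spread along the molecule. In WT replicate 1, read bases over the whole 5.8S had 4.78% mismatches, 4.62% insertions and 9.70% deletions, with a mean base quality of 14.3. Over the 20 libraries mismatch ran from 3.04% to 4.78%, insertion from 3.94% to 4.90% and deletion from 6.87% to 9.70%. Between pairs of libraries, the median correlation of the profiles over positions was r = 0.974 for deletion, 0.984 for base quality, 0.918 for mismatch and 0.831 for insertion (190 pairs, positions of 1 reference sequence, no test). The lowest pair had 0.876 for deletion, 0.925 for base quality, 0.622 for mismatch and 0.326 for insertion, so the insertion profile was the least alike between libraries.

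The 5 positions of the highest mismatch in WT replicate 1 were all pyrimidines. Position 73 led with 44.3% (Wilson 95% interval 42.0 to 46.6, 1838 reads), followed by U157 with 26.5% (24.2 to 29.0), C115 with 23.1% (21.2 to 25.04), U156 with 21.3% (19.5 to 23.3) and U143 with 19.2% (17.5 to 21.1). U157 and U156 lie in the last 3 positions, where coverage falls, and their base qualities in WT replicate 1 were 5.40 and 6.08. U143 was variable, from 0% to 19.2% over libraries, and was among the 10 highest in 12 of 20 libraries, against 20 of 20 for position 73.

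The 5 highest deletion rates lay between positions 102 and 136. In WT replicate 1 A111 was deleted in 75.0% of reads, G136 in 73.4%, U113 in 71.9%, U102 in 56.0% and C120 in 51.8%, each from 1843 or 1844 reads. All were among the 10 highest in 19 or 20 of the 20 libraries, and over all libraries G136 ranged from 61.9% to 90.3% and C120 from 22.7% to 51.8%. G136 is the last base of a run of 5 G, and C120 the last of a run of 4 C.

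By segment, positions 101 to 140 had 17.5% deletions in WT replicate 1 and 11.2% to 17.7% over libraries. Positions 31 to 100, which include position 73, had 4.94% in WT and 3.06% to 4.94% over libraries. Deletion was higher, and base quality lower, in positions 101 to 140 than in positions 31 to 100 in 20 of 20 libraries. Positions 101 to 140 hold all 5 of the highest deletion rates in WT, so the order in deletion restates those peaks. Deletion was also common at the 5′ end, with 13.3% at positions 1 to 30 in WT and 8.57% to 13.6% over libraries. At the 3′ end, positions 141 to 158 had 3.99% to 7.75% over libraries. Positions in runs of at least 3 equal bases had 14.7% deletions in WT, against 8.90% at positions without an equal neighbour, again in the same order in 20 of 20 libraries.

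Insertions were highest at U55 (16.5% in WT replicate 1), A54 (16.1%), position 73 (15.9%), U74 (14.4%) and A77 (13.5%). The first 4 were among the 10 highest in 17 to 20 of the 20 libraries, and A77 in 3. A54 closes a run of 3 A, and U55 follows it. The lowest base qualities in WT replicate 1 were 4.42 at A109, 4.49 at A111, 4.73 at U7, 5.28 at C19 and 5.40 at U157, and these were among the 10 lowest in every library in which at least 20 reads covered them. By base, mismatch in WT replicate 1 was 7.73% at U, 5.27% at C, 3.08% at A and 2.78% at G.

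**Figure D3:**
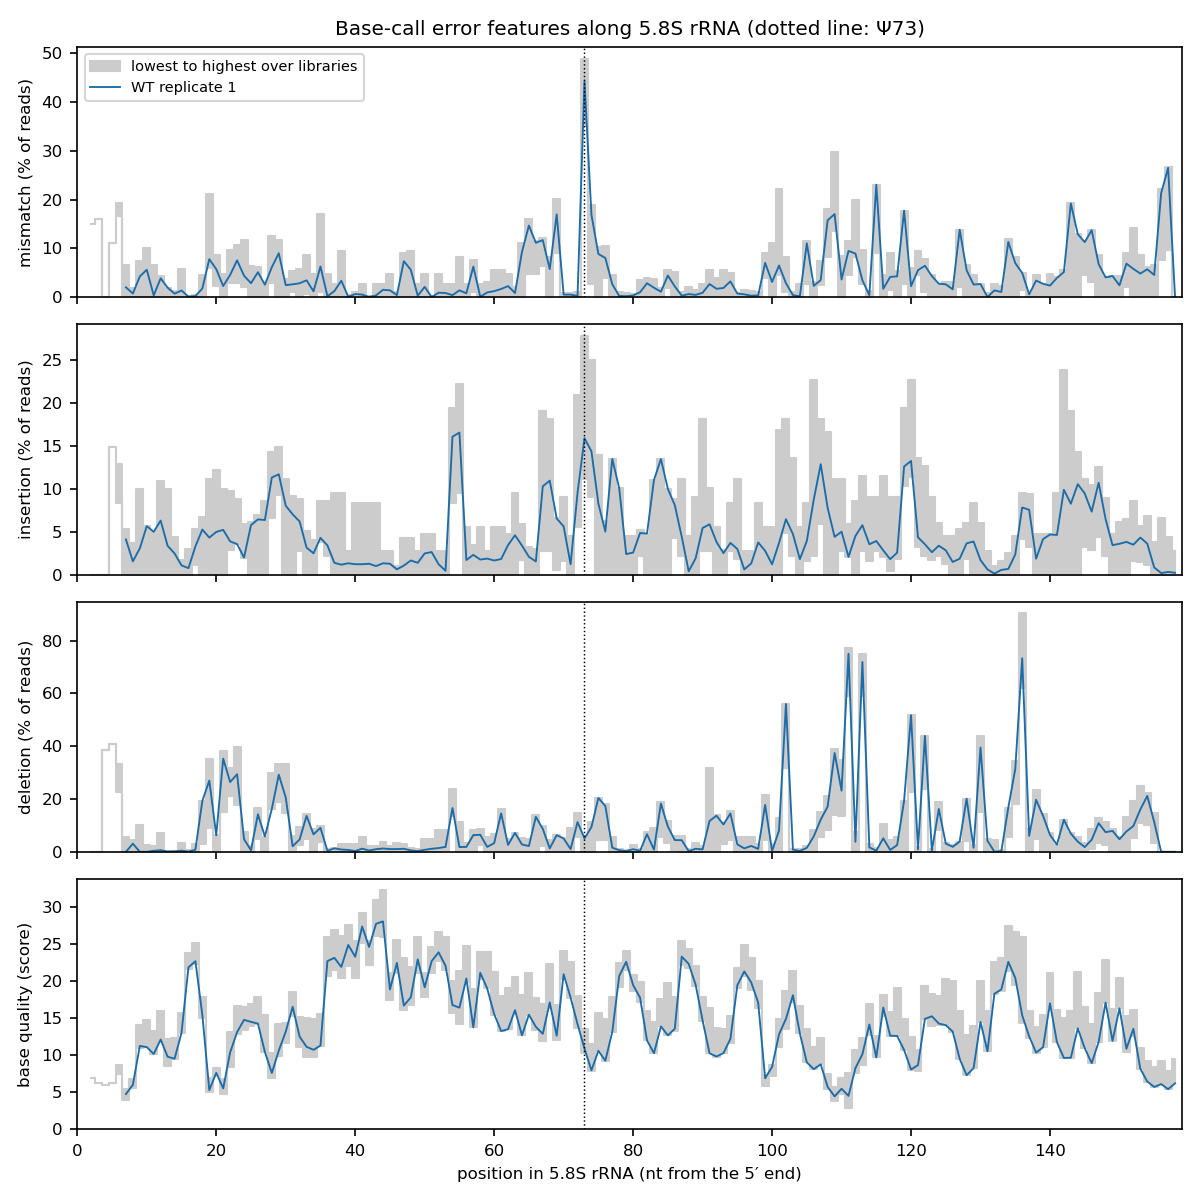
Mismatch, insertion and deletion (percent of reads) and base quality (score) at each position of 5.8S, with WT replicate 1 as a blue line and the lowest to highest value over libraries with at least 20 reads as grey steps. The mismatch peak at position 73 and the deletion peaks at positions 102, 111, 113, 120 and 136 recur over the libraries.

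Compared with the other rRNAs, 5.8S had more deletions and fewer insertions. The deletion rate exceeded that of 18S by 2.13 ± 0.69 percentage points, that of 25S by 2.78 ± 0.75 and that of 5S by 4.09 ± 0.77 (mean ± SD over 12 groups, 20 of 20 libraries higher in each). The insertion rate was lower than that of 18S by a difference of −1.86 ± 0.26 points and than that of 25S by −1.42 ± 0.31 points, in 20 of 20 libraries. Mismatch was lower than in 18S (−0.76 ± 0.55 points) and 25S (−0.53 ± 0.60), also in 20 of 20.

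An exact sign-flip permutation test over the 12 group means gave p = 0.000488 for each of these 7 differences, which is the lowest that test can give (adjusted p = 0.000837 over 12 comparisons). Against 5S, neither mismatch (−0.21 points, exact adjusted p = 0.131) nor insertion (0.04 points, exact adjusted p = 0.660) passed over whole molecules. Without the first 30 and last 10 positions of each RNA both did, with −0.80 points (exact adjusted p = 0.000837) and −0.42 points (exact adjusted p = 0.00799). Base quality was lower in 5.8S by −1.59 against 25S and −1.22 against 5S (exact permutation, adjusted p = 0.0013 each), and by −0.58 against 18S (adjusted p = 0.0211). The last of these was 0.12 without those ends (exact permutation, adjusted p = 0.634). Deletion against 18S was 1.60 points without those ends, with 18 of 20 libraries higher. These comparisons set different sequences beside each other, and the part of base composition in them was not tested. The same sequences recur in all 12 groups, and each strain group holds 1 library. The p-values thus measure only how regularly a difference recurs over these groups.

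Position 73 stood out in mismatch in every library. Its mismatch was the highest of all 5.8S positions with at least 20 reads in 20 of 20 libraries, from 35.1% to 48.8% with a median of 43.2%. The median of the other 5.8S uridines was 3.21% to 5.72%, and the next-highest uridine reached 11.9% to 26.6%. The lowest value of position 73 in any library thus exceeded the highest of any other 5.8S uridine. Among 45 known Ψ sites of yeast rRNA, listed from general knowledge, its mismatch had rank 19 to 31, and the median of the list was 43.1% to 53.1%.

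By library, mismatch at position 73 was 48.8% in snR3KO (Wilson 95% interval 47.2 to 50.5, 3455 reads), 45.8% in snR34KO (43.2 to 48.5, 1322 reads), 45.04% in snR36KO (43.2 to 46.9, 2762 reads) and 44.3% in WT. Replicates 1 and 2 of F1 had 36.1% and 36.4%, those of F2 45.2% and 43.1%, those of F3 45.3% and 43.2%, and those of F4 36.1% and 42.8%. The low values of F1 and of F4 replicate 1 rest on 22 to 36 reads, and their intervals, such as 22.5 to 52.4 in F1 replicate 1, take in the values of all other libraries.

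In the peroxide experiment mismatch at position 73 was 45.2% and 42.4% in untreated input, 37.3% and 44.5% in treated input, 41.1% and 40.3% in untreated F3-4, and 35.1% and 44.5% in treated F3-4. In both treated groups replicate 1 was lower than replicate 2 with intervals that barely or do not overlap (32.0 to 43.0 against 42.5 to 46.5 in input, 29.8 to 40.9 against 42.3 to 46.7 in F3-4). The treated groups overlapped the untreated ones in each kind of RNA.

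**Figure D4:**
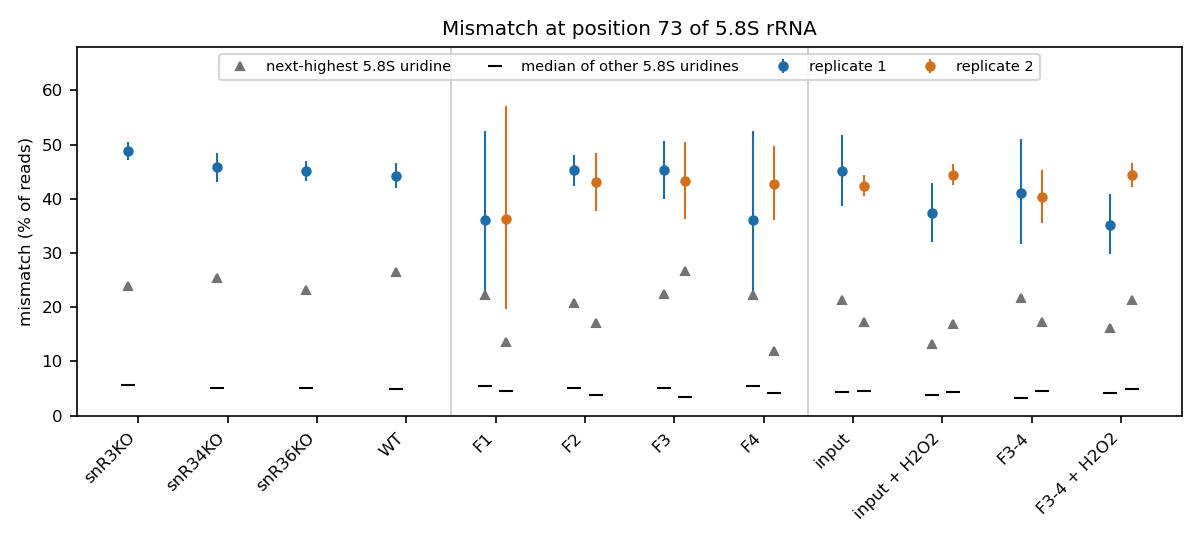
Mismatch at position 73 in each library with its Wilson 95% interval, in percent of reads, replicate 1 in blue and replicate 2 in orange. The dashes give the median of the other 5.8S uridines and the triangles the next-highest uridine of the same library, which stays below position 73 in all 20 libraries.

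Position 73 and bases on both sides of it also carried other errors. Insertions at 73 were 11.1% to 27.8% (median 18.3%), while deletions there were rare, with 0% to 5.06%. U74, the second uridine of the pair, had a median mismatch of 13.5% (2.78% to 19.0%) and a median insertion rate of 14.0%. Before the Ψ, U69 had a median mismatch of 14.9% (9.09% to 20.0%). The median insertion rate was 12.3% at A72, against 8.99% at G75 and 4.00% at C76. Deletions had medians of 12.2% at G75 and 12.5% at C76, against 9.57% at A72 and 0.678% at A71, the bases before the Ψ. Base quality had its lowest median of this window at U74, with 9.37, against 11.3 at position 73 and 22.7 at G70.

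The strains ask whether loss of a guide for other sites touches 5.8S. No position did so by the size rule of 10 percentage points: 0 of 152 positions with at least 20 reads in both libraries differed that much from WT in mismatch, insertion or deletion, in any of the 3 strains. Over all rRNA positions, the share past 10 points was 0.146% for mismatch, 0.0915% for insertion and 0.0732% for deletion in snR3KO, 0.11%, 0.0183% and 0.0733% in snR34KO, and 0.0549%, 0% and 0.0915% in snR36KO. With shares this small, 0 of 152 is near the background. Each strain has 1 library with error features, so there is no test and no replicate check.

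In snR3KO mismatch at position 73 was 4.54 points above WT, with intervals that do not overlap (47.2 to 50.5 against 42.0 to 46.6). Mismatch at U7 differed by 4.50 points and deletion there by 5.61 points, from 107 and 49 reads. Mismatch at A105 was lower than in WT in all 3 deletion strains, by −2.78, −3.53 and −3.15 points in snR3KO, snR34KO and snR36KO, from 11.1% in WT.

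For deletion, the positions named by size between 102 and 130 had the higher value in WT. C119 differed from WT by −4.04 points in snR3KO and −5.72 in snR36KO, C130 by −4.43 in snR3KO and −3.95 in snR34KO, C120 by −5.16 and U113 by −3.999 in snR34KO, and U102 by −5.64 and U122 by −4.67 in snR36KO. In mismatch, C115 was lower by −3.15 points in snR34KO and −5.38 in snR36KO, G134 by −3.32 in snR34KO, and U157 by −3.28 in snR36KO. Of these differences, most run from a higher value in WT, and whether the WT library as such or its strain carries them cannot be told apart with 1 library. Among all libraries with at least 20 reads, including those of other wild-type cells, WT replicate 1 had the highest deletion at U102, C119, C120 and U122. It also had the highest mismatch at C115. At U113 and C130 in deletion, and at G134 and U157 in mismatch, another library was higher. Insertions differed by at most 4.08 points, at U7 in snR36KO, where WT has 49 reads; the others named by size were A10, C8 and U145 in snR3KO, G85, C84 and position 73 in snR34KO, and A77 and C11 in snR36KO, with absolute differences of 1.91 to 2.82 points.

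Gradient fractions were compared at each position by a logistic model with quasi-binomial spread, fitted to all rRNA positions with at least 20 reads in every library. Among F1 to F4, 132 of the 158 5.8S positions could be tested, and 0 passed an adjusted p of 0.05 in mismatch, insertion or deletion, as did 0% of all 5305 positions. Among F2 to F4, without the shallow F1, 0 of 145 passed (0% of 5424). At an unadjusted p under 0.05 there were 3 mismatch, 6 insertion and 11 deletion positions of 5.8S among F1 to F4, and 9, 8 and 11 among F2 to F4. These are 2.27%, 4.55% and 8.33% of the 5.8S positions tested among F1 to F4, against 16.2%, 16.7% and 13.9% of all rRNA positions, and 6.21%, 5.52% and 7.59% among F2 to F4, against 17.2%, 18.2% and 14.3%. In both of these sets the share in 5.8S was below that of all positions for each kind of error. For F2 minus F1 alone it was above, with 1.52%, 5.30% and 5.30% in 5.8S, against 0.999%, 1.04% and 2.19% of all positions. For F3 minus F1 and F4 minus F1 the order differed between kinds of error. The part of read depth, which differs between the rRNAs, in these shares was not tested.

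Mean mismatch of position 73 itself was 36.2% ± 0.18 for F1, 44.2% ± 1.5 for F2, 44.3% ± 1.5 for F3 and 39.4% ± 4.7 for F4 (SD, n = 2). The adjusted p for a difference among the 4 was 0.662 (quasi-binomial model, Benjamini-Hochberg). For F2 minus F1 the difference was 7.91 points, for F3 minus F1 8.04 and for F4 minus F1 3.21, with adjusted p of 1.00, 1.00 and 0.858 in the same model.

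The positions with the lowest p among fractions were differently placed for each kind of error. In deletion these were A61, with 1.39% ± 2.0 for F1, 15.7% ± 0.51 for F2, 11.6% ± 1.9 for F3 and 8.55% ± 0.30 for F4 (SD, n = 2), then C84 and C120. C120, one of the deletion peaks, had 25.6% ± 4.1 for F1, 46.4% ± 3.3 for F2, 37.6% ± 3.0 for F3 and 44.8% ± 4.4 for F4. All 3 had an adjusted p of 0.339 in the quasi-binomial model.

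In mismatch they were G134 (0% in both F1 libraries, 10.3% ± 2.4 for F2, 7.36% ± 0.37 for F3 and 8.84% ± 3.7 for F4, adjusted p = 0.286 in the quasi-binomial model), G150 and C57. In insertion they were U100, C117 and U101, with adjusted p of 0.168, 0.173 and 0.228 in that model. F1, with 22 and 36 reads at most, held the highest or lowest group mean at all of these positions but C84 and C57.

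A few positions passed when 1 library was left out, in shares under the background of the same setting. Without F2 replicate 2, deletion among F1 to F4 passed at 5 of 132 positions (U102, C119, U122, C130 and A138), while 11% of all positions passed, and among F2 to F4 at 4 of 145 (8.81% of all). At all of them but C130, F2 replicate 1, then the only F2 library, held the highest rate, such as 18.8% at C119 against 9.12% in F2 replicate 2. Without F4 replicate 1, mismatch passed at G134 among F1 to F4 (1 of 132, 3.34% of all) and at C57, G68, G150 and U157 among F2 to F4 (4 of 147, 11.5% of all).

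For insertion the corresponding counts were 1 position, U100, without F2 replicate 2 among F1 to F4 (14.5% of all). Among F2 to F4 they were A13 without F2 replicate 2 (10.4% of all), U69 and U101 without F3 replicate 1 (2.29% of all), and U101 without F3 replicate 2 (2.45% of all).

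Over the whole molecule, deletion was the feature in which fractions stood furthest apart. The deletion rate of 5.8S was 6.87% and 6.93% for F1, 9.17% and 8.17% for F2, 7.86% and 8.06% for F3, and 8.07% and 7.94% for F4. F1 lay below all other fraction libraries, and F3 and F4 overlapped. The range of the group means was 1.77 points, with an exact permutation p of 0.0286, the smallest possible with 105 arrangements. Its adjusted p over 12 tests was 0.343. No adjusted p of these 12 could fall under 0.05, because the exact permutation tests of the peroxide experiment cannot go below p = 0.0556.

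Mean mismatch of the molecule was 3.34% ± 0.41 for F1, 4.07% ± 0.32 for F2, 4.18% ± 0.22 for F3 and 3.64% ± 0.28 for F4 (SD, n = 2, exact permutation p = 0.238). Insertion averaged 4.69% ± 0.19, 4.43% ± 0.20, 4.42% ± 0.44 and 4.21% ± 0.38 in the same order (exact permutation p = 0.467). Base quality was 16.8 ± 0.36 for F1, 15.1 ± 1.4 for F2, 15.7 ± 0.61 for F3 and 16.2 ± 0.75 for F4 (exact permutation p = 0.305). F1, the group with the lowest mean deletion and mismatch rates, also had the highest mean base quality and the fewest reads, and their part in its rates was not tested.

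**Figure D5:**
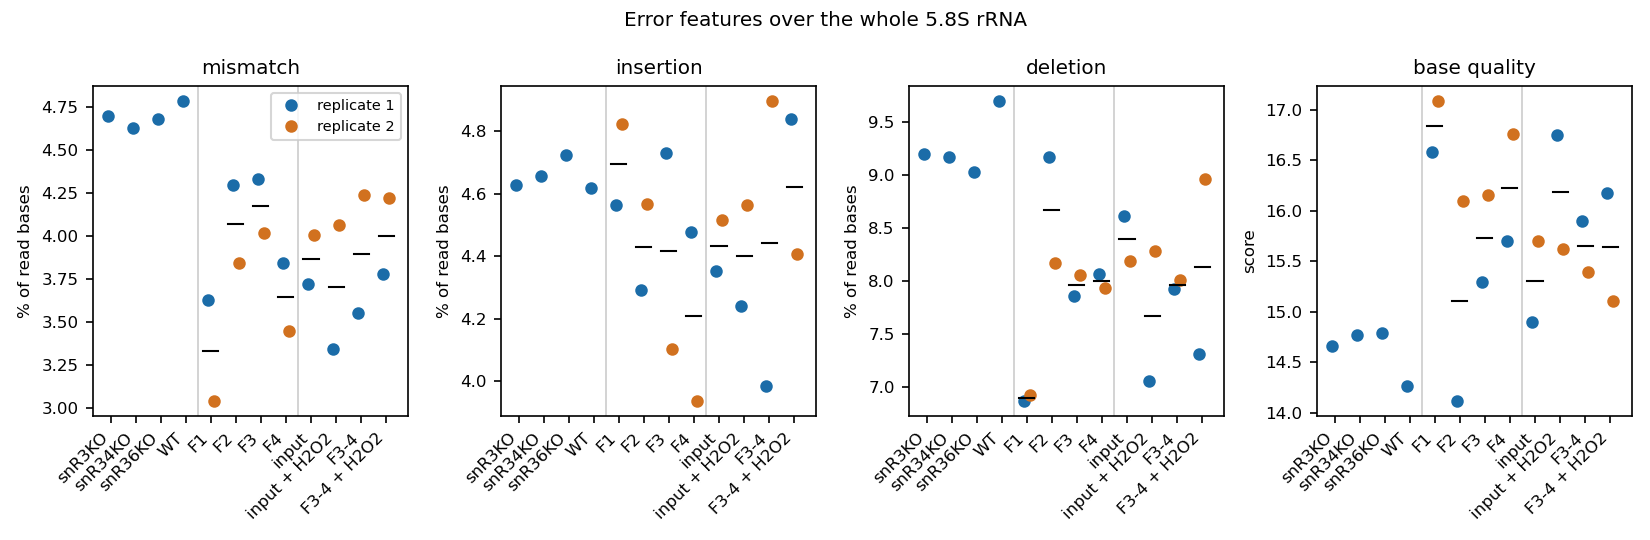
Mismatch, insertion and deletion over all read bases of 5.8S, in percent, and mean base quality, for each library, with replicate 1 in blue, replicate 2 in orange and the mean of 2 replicates as a bar. In the deletion panel both F1 libraries lie under 7%, below the other fractions, and the replicates of each peroxide-treated group lie farther apart than those of its untreated group.

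No position of 5.8S passed the test for a difference under hydrogen peroxide. Of 146 positions tested, 0 passed in input or in F3-4 in mismatch, insertion or deletion (quasi-binomial model, adjusted p of 0.05, 0% of 5425 positions over all rRNAs). At an unadjusted p under 0.05, 5 mismatch, 2 insertion and 4 deletion positions of 5.8S were found in input, and 3, 3 and 3 in F3-4. The shares of all positions at that p were 3.17%, 2.86% and 2.21% in input and 2.88%, 3.00% and 2.82% in F3-4. In 5.8S they were 3.42%, 1.37% and 2.74% in input and 2.05% for each feature in F3-4. The difference between both peroxide effects also passed at 0 positions, with 3, 1 and 6 of 146 at an unadjusted p under 0.05 (2.05%, 0.685% and 4.11%, against 2.58%, 2.91% and 2.62% of all positions).

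At position 73 the treated minus untreated difference in mismatch was −2.89 points in input (43.8% ± 1.9 untreated, 40.9% ± 5.0 treated) and −0.89 points in F3-4 (40.7% ± 0.52 untreated, 39.8% ± 6.6 treated). The adjusted p was 0.998 and 1.00 in the quasi-binomial model. Leaving out replicate 1 of the treated group turned both differences, to 0.68 points in input and 3.77 points in F3-4, without making either pass.

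The positions with the lowest p under peroxide had small differences. In input they were U128 (−1.39 points), G116 (1.32) and G46 (0.37) in mismatch, A41 (1.42), G42 (0.59) and G135 (0.56) in insertion, and G49 (0.37), A104 (−0.45) and A155 (−2.43) in deletion. In F3-4 they were U156 (4.38), G150 (−2.06) and C115 (3.20) in mismatch, A48 (−2.13), C47 (−2.04) and U27 (−1.88) in insertion, and U93 (3.72), G85 (3.99) and C110 (5.62) in deletion. Their adjusted p lay between 0.998 and 1.00 in the quasi-binomial model.

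For whole-molecule rates the smallest exact p that 36 arrangements allow is 0.0556, so no such difference could pass, and the values are a description. The treated minus untreated difference, averaged over input and F3-4, was −0.03 points for mismatch, 0.08 for insertion, −0.28 for deletion and 0.44 for base quality, with exact permutation p of 0.944, 0.833, 0.611 and 0.500. Deletion was 8.62% and 8.19% in untreated and 7.06% and 8.28% in treated input, so the groups overlapped. In F3-4 it was 7.92% and 8.01% untreated, and 7.32% and 8.96% treated, on both sides of the untreated values. Replicates of the treated groups differed from each other more than the groups did. Without replicate 2 of treated F3-4, the deletion difference was −0.69 points (exact permutation p = 0.111).

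Fractions 3-4 against input asked whether 5.8S in the heavier part of the gradient differs from that of the whole cell. Of 146 positions, 0 passed in untreated or in treated cells in any error feature (quasi-binomial model, 0% of 5425). At an unadjusted p under 0.05, there were 0 mismatch, 3 insertion and 2 deletion positions in untreated cells, and 5, 1 and 10 in treated cells. Of all positions, 2.08%, 2.30% and 1.46% were below that p in untreated cells and 3.45%, 5.14% and 3.76% in treated cells, where the 10 deletion positions are 6.85% of those tested in 5.8S. At position 73 the difference in mismatch was −3.11 points in untreated and −1.10 points in treated cells, with adjusted p of 0.999 and 0.997 in that model.

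The lowest p for mismatch in treated cells was found at A155, with 2.06% ± 0.31 mismatch in input and 4.69% ± 0.070 in F3-4, and for deletion at C110, with 27.7% ± 0.78 in input and 32.1% ± 2.3 in F3-4 (adjusted p = 0.997 and 0.983 in the quasi-binomial model). Over the whole molecule, the differences were 0.16 points for mismatch, 0.11 for insertion, 0.02 for deletion and −0.10 for base quality (exact permutation p of 0.611, 0.667, 1.00 and 0.833), again in a test whose smallest possible p is 0.0556. Without replicate 2 of treated F3-4 the deletion difference was −0.39 points and that of base quality 0.17, both with the sign turned.

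Current levels were deposited for the 8 strain libraries, as the mean level in picoampere (pA) of each 5-mer, named here by its first position. Of 5.8S, 154 5-mers were present in replicate 1 of each strain and 130 in replicate 2 of snR3KO, whereas none were listed in replicate 2 of WT, snR34KO and snR36KO. Of the 130 levels of snR3KO replicate 2, 113 are written with at most 3 decimals, against 0 to 7 of 154 in the others. The number of reads behind a level is not in the columns used, so its depth is unknown.

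The 5-mers that contain position 73 had nearly the same current in replicate 1 of all strains. In the 5-mer that ends in position 73 (start 69) the level was 119.5 pA in snR3KO, 119.7 in snR34KO, 119.97 in snR36KO and 119.2 in WT. Over the 5 starts from 69 to 73, the strains differed by 0.330 to 1.09 pA at each start, while the level itself went from 119.6 pA at start 69 to 82.2 pA at start 72 (mean over strains). Replicate 2 of snR3KO was lower than replicate 1 at all 5, with 112.0 against 119.5 pA at start 69.

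Over the whole 5.8S, currents of replicate 1 differed from WT by a mean absolute 0.927 pA in snR3KO, 1.10 pA in snR34KO and 0.981 pA in snR36KO. In the same pairs of libraries, 5-mers of the other rRNAs differed by 0.155, 0.169 and 0.198 pA. The median absolute differences were 0.487, 0.446 and 0.504 pA in 5.8S, against 0.0545, 0.0691 and 0.0732 pA in the other rRNAs. The largest single difference of each pair was at start 1, with 19.2, 35.7 and 26.6 pA. The next in snR34KO were 11.1 pA at start 154 and 10.4 pA at start 41, and in snR3KO and snR36KO they were at starts 3 and 2. By base-call coverage, WT replicate 1 had only 6 reads at position 1 and 8 at each of positions 2 to 5, and the part of depth was not tested. Replicate 2 of snR3KO differed from replicate 1 by a mean absolute 4.36 pA over the 130 shared 5-mers of 5.8S and 0.685 pA over those of the other rRNAs.

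Because 3 libraries hold no 5.8S 5-mer, the strains were compared over the 5 libraries that do, with limma and a spread that comes from the snR3KO pair alone. For snR3KO minus WT, 0 of 130 5-mers of 5.8S and 0% of all 5314 passed an adjusted p of 0.05. WT has 1 library in this comparison, and the snR3KO pair that sets the spread differs by the 4.36 pA given earlier, so the test says little about strain differences. At an unadjusted p under 0.05 there was 1, at start 142, with 1.804 ± 0.51 pA (SE, adjusted p = 1.00 in limma). The next were start 129, with 2.33 ± 0.86 pA, and start 74, with −1.84 ± 0.79 pA, just 3′ of the pseudouridine.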

How the data were processed

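Nanopore direct RNA sequencing was deposited for 24 yeast libraries, and base-call error tables for 20 of them and current tables for 8 were used here. The authors' deposited tables give a read count per position (coverage), the share of reads with a mismatch, insertion or deletion as a fraction, and mean base quality as a score, per the file headers. The deposited current is a signal in pA per 5-mer, per the file headers. No source used here names the aligner, base caller or build.

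Fractions times coverage gave whole reads at all positions (tolerance 0.001). Error rates of the molecule are summed erroneous reads over summed coverage. Each position of all rRNAs with at least 20 reads in all compared libraries was tested with a quasi-binomial logistic model whose spread was moderated with limma 3.58.1 (R 4.3.3) and held at 1 or above, with Benjamini-Hochberg adjustment over all positions. Ratios and rates of the molecule were tested with exact permutation tests over libraries, two-sided for differences and, among fractions, on the range of the group means. Correlations and Wilson intervals used SciPy 1.17.1. The scripts were tested on simulated data. Libraries with at most 36 reads on 5.8S set the precision among fractions. Named positions are the 5 most extreme in WT replicate 1, the 3 of lowest p or largest strain difference, and position 73. The members and lists were chosen with earlier results of these data known. Replicate numbers mark no shared batch in the labels.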

Additional observations from a re-analysis of the deposited data

How the results depend on the processing

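Another coverage minimum (10 or 50 reads), another number of added reads (0.1) and, for mismatch, limma on logits changed no call where 5.8S could be tested. With a minimum of 50 reads, 0 positions of 5.8S could be tested among fractions, and 146 in the peroxide experiment. With 5 points as the size rule, strain counts in 5.8S went from 0 to 1 for deletion in snR3KO and in snR34KO, 1 for mismatch and 2 for deletion in snR36KO, and with a minimum of 10 reads 1 position passed 10 points for insertion in snR34KO. Without position 73 and its 5 neighbours on each side, the mismatch difference under peroxide was 0.045 points and the deletion difference of F3-4 against input −0.065 points, and without the first 30 and last 10 positions the former was 0.019, each with the opposite sign of a value near 0. With mismatch, insertion and deletion summed, position 73 differed by −5.19 points for F4 minus F1, 1.15 for peroxide in F3-4, 1.63 for peroxide in input and −0.47 for the difference between both peroxide effects, none of which passed. Without the molecule ends, an alternative added after seeing the data, 5.8S minus 5S was −0.42 points for insertion and −0.80 for mismatch, and 5.8S minus 18S was 0.12 for base quality. With the replicate block, the deletion range among fractions of 1.77 points had an exact permutation p of 0.0833, and the block changed no other call. The labels do not say whether replicates of the same number are paired. In a check of pairing by number, correlations over 6 pairs of groups were all positive. They ran from 0.229 to 0.488 among fractions and from 0.157 to 0.511 in the peroxide experiment. Planned current fits held no 5-mer of 5.8S, and with the 5 libraries used the replicate block could not be fitted. The cause of these changes was not tested.

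Leaving out 1 library at a time, the log2 coverage ratio moved between 1.09 and 3.07 among fractions, 0.045 and 2.26 for peroxide, and −0.46 and 1.75 for F3-4 against input. Left out in this way after seeing the data, the difference between both peroxide effects moved between −0.24 and 4.19. Mismatch of the molecule moved between −0.207 and 0.151 points for peroxide and −0.017 and 0.340 for F3-4 against input. Insertion moved between −0.153 and 0.304, and −0.114 and 0.343. Deletion moved between 1.27 and 2.27 among fractions (exact permutation p from 0.0286 to 0.143), −0.691 and 0.131 for peroxide, and −0.395 and 0.427 for F3-4 against input. Base quality for F3-4 against input moved between −0.382 and 0.184. Counts of positions called in F1 to F4 went from 0 to 5 for deletion, 0 to 1 for insertion and 0 to 1 for mismatch, and in F2 to F4 from 0 to 4, 0 to 2 and 0 to 4. Mismatch at position 73 moved between −0.126 and 6.55 points for F4 minus F1, −5.75 and 3.56 for treated F3-4 minus treated input, −5.54 and 3.77 for peroxide in F3-4, −6.46 and 0.676 for peroxide in input, and −2.65 and 6.66 for the difference between both peroxide effects. Depth limits F1 and F4 replicate 1 most, with at most 36 reads.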

Other observations

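The 4 strain libraries had 4.63% to 4.78% mismatches over the whole 5.8S, above the 3.04% to 4.33% of the other 16 libraries. At A77, 4 positions after the pseudouridine, insertions were 11.2% to 13.5% in the strain libraries and 0% to 7.84% in the other 16. Both were picked after the values were seen, and they carry no test. WT and untreated input share a genotype and a purification kit, while the labels give the RNA fraction as total RNA for the strains and ribosomal RNA for input, and they lay on opposite sides of both gaps. The part of sequencing run or batch, which the labels do not give, was not tested.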
